A study of Mus musculus with 8 samples.

Results

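The motile cilium and axoneme genes described here are the genes whose symbol starts with Cfap, Dnah, Dnai, Dnaaf, Rsph or Drc followed by a number. Symbols alone decide which genes belong, but this set was picked with earlier results of these data known. They are 79 of the 21959 genes in the deposited table: 40 Cfap genes (cilia and flagella associated proteins), 15 Dnah genes (axonemal dynein heavy chains), 9 Dnaaf genes (dynein assembly factors), 8 Rsph genes (radial spoke heads), 4 Dnai genes (dynein intermediate chains) and 3 Drc genes (nexin-dynein regulatory complex). The table attaches a cilium, flagellum or axoneme term to 68 of the 79. Genes were compared between 4 libraries of the Model group, treated with PCPA (para-chlorophenylalanine, which blocks serotonin synthesis) per the labels, and 4 of the IsoL group, treated with isoliensinine, a plant alkaloid. All 8 libraries are labelled as wild-type mouse. Per the design text, the animals were female ICR mice, dosing lasted 7 days with IsoL at 12.5, 25 or 50 mg/kg, and the hypothalamus was taken, while the tissue is labelled brain. Which dose was sequenced, and whether IsoL mice also received PCPA, is not in the labels. Nor do they say that each library is a separate mouse, so a p-value here reflects the spread among libraries alone, and that spread may be technical.

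A motile cilium is a beating cell process built on the axoneme, a ring of doublet microtubules around a central pair. Rows of outer and inner dynein arms on each doublet pull on the next one, and radial spokes, the central apparatus and the nexin-dynein regulatory complex set when each arm works. In the brain, motile cilia stand mainly on ependymal cells, which line the ventricles and move cerebrospinal fluid, including the third ventricle in the hypothalamus. Cells that grow many motile cilia switch these genes on through the transcription factors FOXJ1 and RFX. RFX proteins bind the X-box, an inverted repeat close to the start of many ciliary genes.

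RefSeq promoters (GRCm38.p6, 250 bases before to 50 after each start) were matched for 66 of the 79 genes, with 71 promoters in all. The promoter matched to Rsph10b is listed under Pms2, a gene that overlaps it on the same strand. They were searched on both strands for the X-box, written here as GTTNCC, then 3 bases of any kind, then GNAAC, in which N is any base. It was present in 8 of the 71 promoters (11.3%) and in 264 of all 32851 promoters (0.804%). The half-site GTTGCC, which can lie inside an X-box, was present in 36.6% of member promoters and 12.5% of all promoters. The forkhead motif GTAAACA, of the family FOXJ1 belongs to, was in 4.23% and 3.65%. The 8 windows with an X-box are shown because the share with an X-box was higher in member promoters, although most of these hold none. Each window holds the X-box in capitals with 15 bases on either side, on the strand of the gene.
Cfap20dc (chr14:8666364-8666407, minus strand): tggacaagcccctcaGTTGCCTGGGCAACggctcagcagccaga
Cfap298 (chr16:90935009-90935052, minus strand): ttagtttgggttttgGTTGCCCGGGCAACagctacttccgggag
Cfap44 (chr16:44394757-44394800, plus strand): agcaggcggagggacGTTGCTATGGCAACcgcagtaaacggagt
Cfap45 (chr1:172521096-172521139, plus strand): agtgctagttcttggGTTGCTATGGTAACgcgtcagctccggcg
Cfap61 (chr2:145934761-145934804, plus strand): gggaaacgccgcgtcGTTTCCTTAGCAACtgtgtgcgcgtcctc
Dnaaf2 (chr12:69198418-69198461, minus strand): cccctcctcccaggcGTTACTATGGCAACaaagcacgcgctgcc
Dnaaf6 (chr1:31222765-31222808, plus strand): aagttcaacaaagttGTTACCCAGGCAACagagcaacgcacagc
Dnaaf6b (chrX:140062857-140062900, plus strand): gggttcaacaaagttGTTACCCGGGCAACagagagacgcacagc

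The X-box of Cfap44, Cfap45 and Dnaaf2 matched the pattern on the opposite strand only. The motifs began 7 to 188 bases before the start, and 6 of the 8 windows also held the half-site. A match describes letters and shows no binding. Of these 8 genes, 6 had enough counts to be tested and 5 of those lay above Model, with log2 differences of -0.05 for Cfap20dc to 0.33 for Cfap61 and none past the threshold.

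Levels were low. Per length, the median of the 79 genes was 1.02 FPKM (the deposited counts per length and library total, averaged over the 8 libraries), against 1.88 for all genes, and 40 of them reached 1 FPKM. The highest per length were Cfap36 at 32.8 FPKM, a partner of the small GTPase ARL3 in primary cilia, Cfap418 at 20.3, a photoreceptor gene, and Dnaaf9 at 19.9, of the dynein assembly factors. Dnaaf9 alone held 21.5% of the counts of all members and Cfap36 9.15%, so a sum over members mostly follows such genes. The summed level of the 79 genes was 915 to 1008 CPM (counts relative to library size, scaled between libraries with TMM) in Model and 955 to 1057 in IsoL, and the groups overlapped. Libraries held 14262836 to 21620466 counts, of which 13286 to 22137 fell on members, and 76 or 77 members had at least 1 count in each library. Model 2 stood apart from the other libraries, since the chi-square of counts per degree of freedom between 2 libraries was 11.4 to 15.9 where Model 2 was one of them and 2.58 to 10.1 otherwise. The 4 Y-linked genes Ddx3y, Eif2s3y, Kdm5d and Uty summed to 304 to 348 CPM per library, although the mice are described as female.

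After a filter on low counts, 73 of the 79 genes were tested. Dnaaf4 and Dnaaf6 had 0 counts in every library, which allows up to 3 counts, or 0.139 to 0.210 CPM, and covers counting error only. Nearly the whole span of Dnaaf4 is covered on the same strand by Gm44503, and Dnaaf6 has a near-identical copy in Dnaaf6b, so both zeros are uncertain. Dnaaf6b had 57 counts over the 8 libraries, Cfap53 81, Cfap97d1 13 and Rsph6a 12. RSPH6A is the spoke head protein of sperm.

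Axoneme genes leaned higher in IsoL by small amounts, and 1 of them passed the test. Of the 73 tested, 52 (71.2%) lay above Model, against 49.5% of all 14536 tested genes, and the median log2 difference was 0.17 against -0.0015 over all tested genes. Only Cfap43 passed at an adjusted p of 0.05 in edgeR's quasi-likelihood test. Over all genes 0.275% passed in either direction with 0.117% higher and 0.158% lower in IsoL, and no test set the members against that background. Below, a gene passed where it met this threshold in edgeR, unless another tool is named. At an unadjusted p under 0.05 there were 14 members higher and 4 lower in edgeR, against 6.44% and 6.78% of all genes. All 4 IsoL libraries lay above all 4 Model libraries for 7 members, where 4.05% of all genes did so, and below them for 2, where 4.42% did so. The median was 0.09 without IsoL 3, and 0.26 with IsoL 3 and 4 alone against Model.

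**Figure D1:**
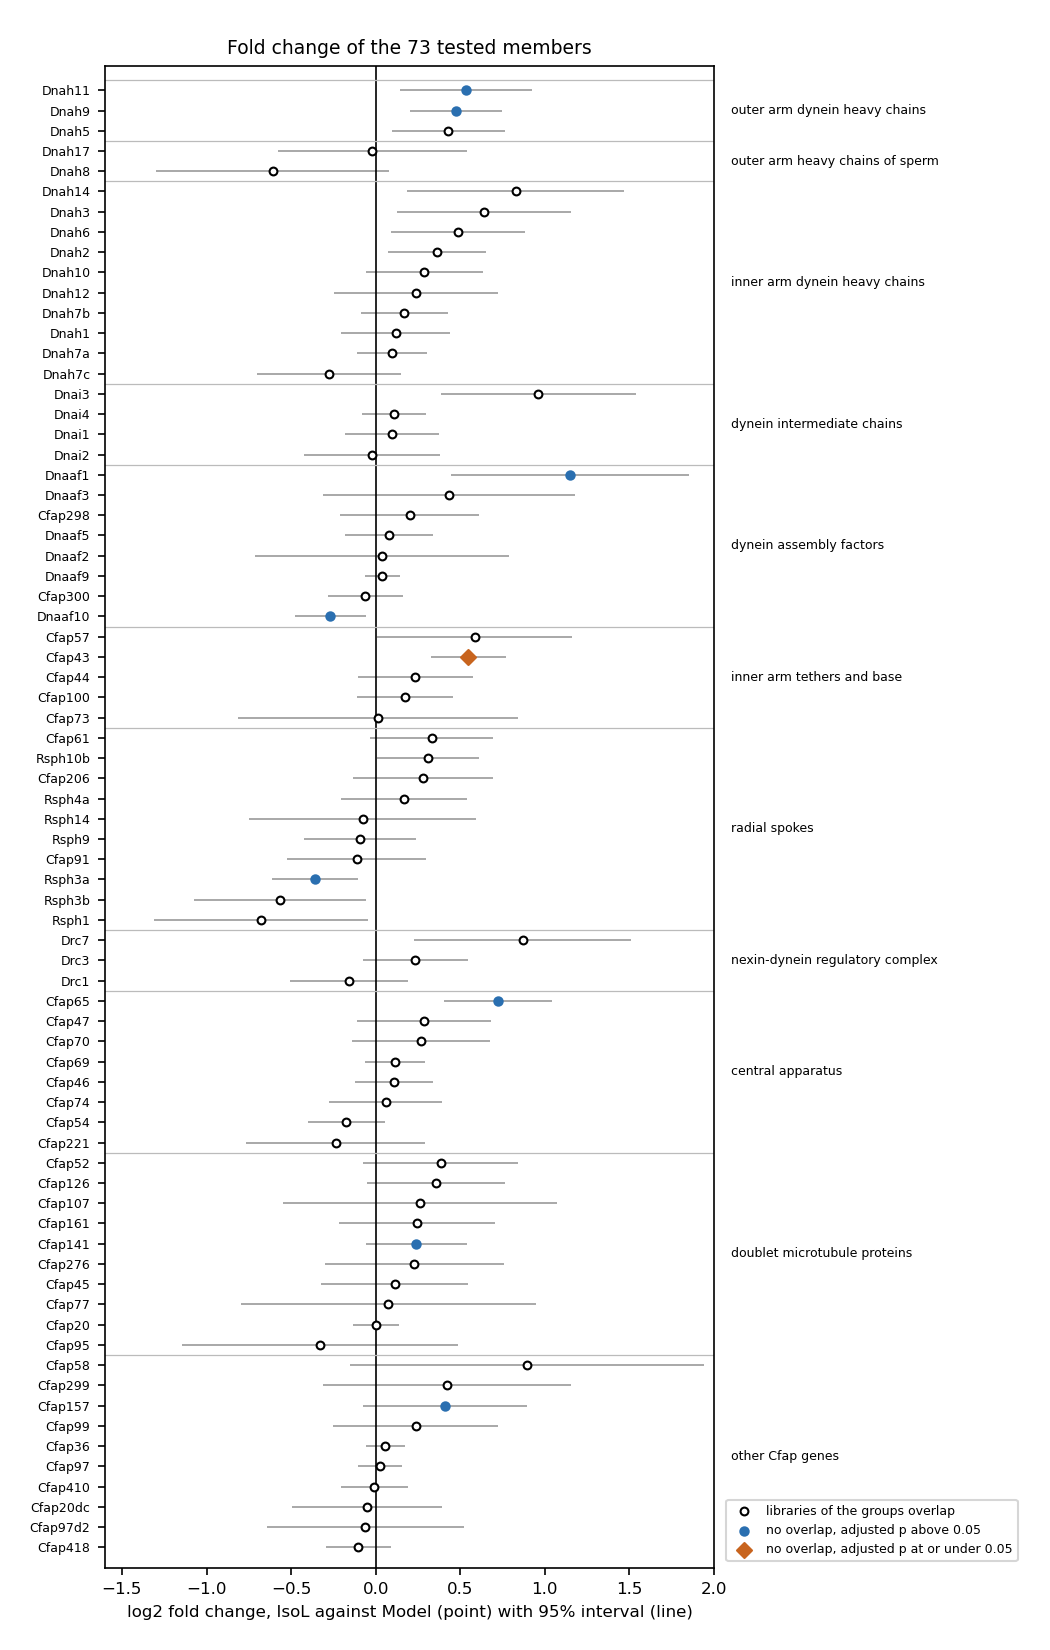
Log2 fold change of each of the 73 tested members, IsoL against Model (horizontal axis; points, with lines for the 95% interval), ordered by role. The filled points mark the 9 genes whose libraries do not overlap between the groups, and the diamond is Cfap43, the single gene past the threshold in edgeR.

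The outer dynein arm gives the beat most of its power, and its heavy chains lay above Model together. Dnah9 (ENSMUSG00000056752, chromosome 11, 65722108 to 66059377 in the deposited coordinates), a heavy chain of the distal part of the cilium, was at 7.06, 7.76, 10.0 and 7.13 CPM in Model 1 to 4 and at 10.2, 12.2, 11.3 and 10.8 in IsoL 1 to 4. Every IsoL library was above every Model library, with Model 3 close to IsoL 1. The log2 difference was 0.48 (SE 0.13, edgeR adjusted p = 0.129) and passed in limma voom alone (adjusted p = 0.0421). Dnah11, the heavy chain of the base of the cilium, was at 2.94, 4.19, 5.29 and 5.43 CPM in Model and 5.89, 7.01, 6.96 and 6.005 in IsoL. Its groups did not overlap either, Model 1 being the lowest library (log2 0.53, SE 0.18, edgeR adjusted p = 0.232). Dnah5, the heavy chain present along the whole cilium, was at 7.45 to 9.51 CPM in Model and 7.86 to 13.9 in IsoL, with IsoL 1 inside the Model range (log2 0.43, edgeR adjusted p = 0.259). The 2 heavy chains of the outer arm of sperm, Dnah8 and Dnah17, were not above Model. This split of the outer arm was made after the values were seen. Dnah17 had a log2 difference of only -0.02 (95% interval -0.58 to 0.54). Dnah8 was at 3.15, 3.57, 6.96 and 4.55 CPM in Model and 3.07, 1.86, 2.21 and 4.63 in IsoL, a log2 difference of -0.61 (95% interval -1.30 to 0.08, edgeR adjusted p = 0.441) with IsoL 4 inside the Model range.

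Inner arm heavy chains shape the bend of the beat. Of 10 tested, 9 lay above Model and none passed, with a median log2 difference of 0.26. Dnah6 was at 8.88, 8.01, 13.1 and 10.8 CPM in Model and 10.3, 14.7, 17.8 and 14.3 in IsoL, so that IsoL 1 was within the Model range (log2 0.49, SE 0.18, edgeR adjusted p = 0.285). Dnah14 was highest in IsoL 1 and 2, at 4.91 and 6.26 CPM, while IsoL 3 and 4 at 3.10 and 3.30 were below Model 1 at 3.99 (log2 0.83, edgeR adjusted p = 0.261). Dnah1 and Dnah7b, the inner arm chains with most reads per length, had log2 differences of 0.12 (95% interval -0.20 to 0.44) and 0.17 (95% interval -0.08 to 0.43). Dnah7a, Dnah7b and Dnah7c are near-identical copies among which reads can be split, and their separate values are uncertain.

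Intermediate chains hold the heavy chains to the doublet. Dnai3, of an inner arm, was at 1.47, 2.69, 2.02 and 1.77 CPM in Model and 2.15, 4.70, 4.74 and 3.94 in IsoL. IsoL 2 to 4 were above all Model libraries and IsoL 1 was not (log2 0.96, SE 0.27, edgeR adjusted p = 0.143), on 119 counts in all of Model and 277 in all of IsoL. Dnai1 and Dnai2, which belong to the outer arm, had log2 differences of 0.10 (95% interval -0.18 to 0.37) and -0.02 (95% interval -0.42 to 0.38). Their heavy chains Dnah5, Dnah9 and Dnah11 were at 0.43 to 0.53. Dnai4 was at 0.11.

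Assembly factors fold and join the arms in the cytoplasm before they enter the cilium. Of 8 tested, 6 lay above Model and none passed in edgeR, with a median log2 difference of 0.06. Dnaaf1, a leucine-rich repeat protein needed for arm assembly, had the largest difference of all members. It was at 0.350, 0.501, 0.487 and 0.340 CPM in Model and 0.860, 0.870, 1.08 and 0.963 in IsoL, without overlap. That log2 difference of 1.15 (SE 0.33, adjusted p = 0.152 in edgeR) rests on 25 counts summed over Model and 67 over IsoL. Dnaaf10 went the other way without overlap, at 12.03, 13.4, 11.6 and 13.6 CPM in Model and 11.1, 10.7, 10.7 and 9.76 in IsoL (log2 -0.27, SE 0.10, adjusted p = 0.263 in edgeR). It shares 35.3% of its span on the same strand with Ppp3r1, so its reads may be assigned in part elsewhere. Dnaaf9 was at 192 to 219 CPM in Model and 208 to 219 in IsoL (log2 0.04, 95% interval -0.07 to 0.14), and Dnaaf5 at 6.01 to 7.07 and 6.46 to 7.40.

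**Figure D2:**
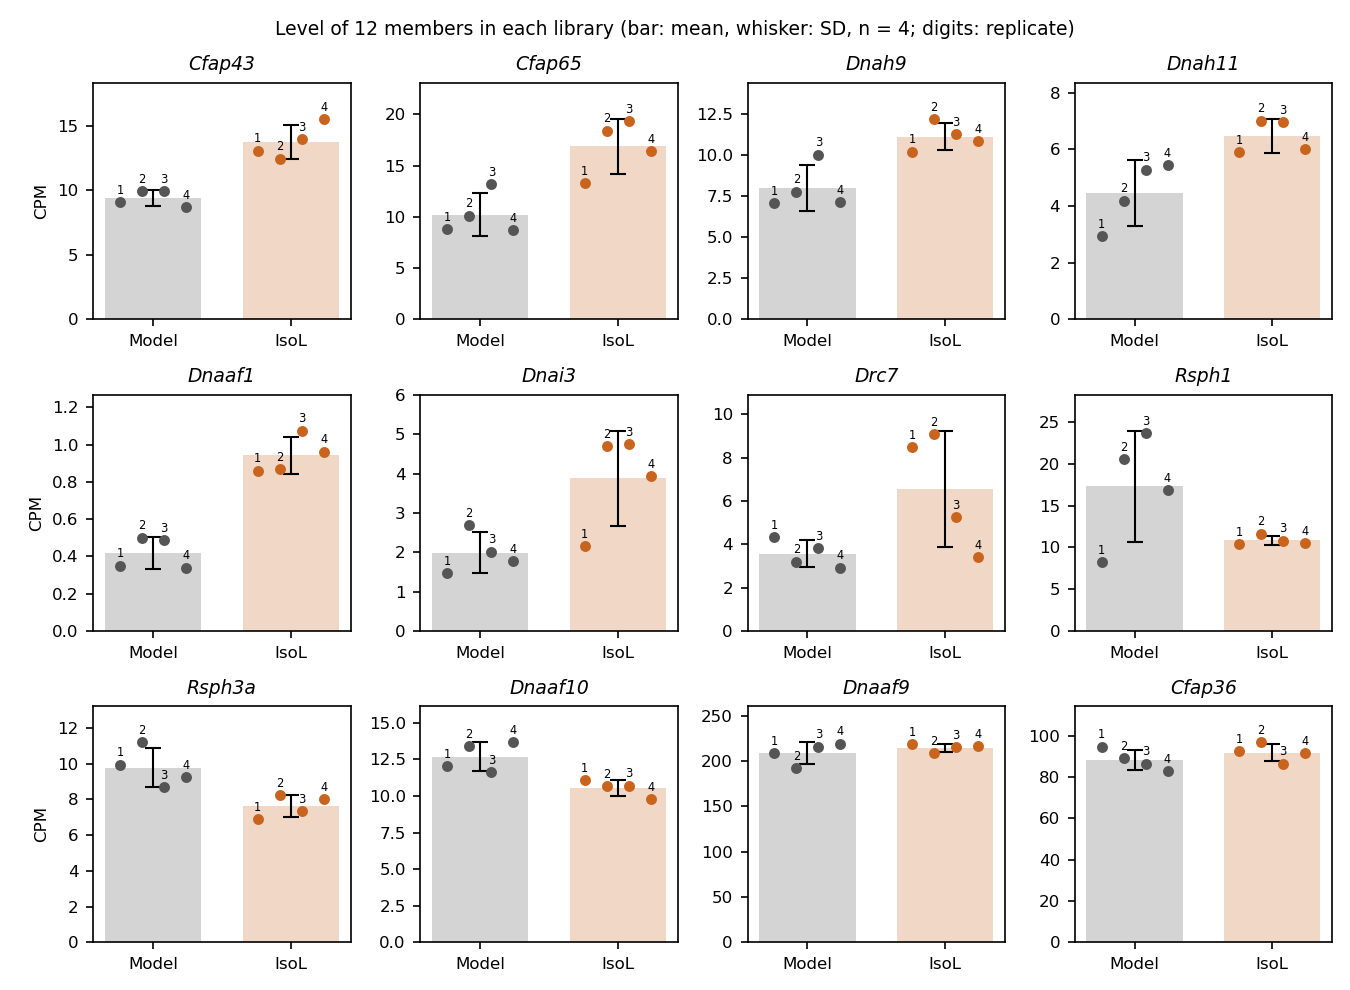
CPM of 12 members in each library (vertical axes, each from 0; bars are means, whiskers SD, n = 4 per group, digits the replicate). Cfap43, Cfap65, Dnah9, Dnah11 and Dnaaf1 have every IsoL library above every Model library, Rsph3a and Dnaaf10 below, and Drc7 is highest in IsoL 1 and 2.

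Proteins that tether the inner arms gave the single gene past the threshold. Cfap43 (ENSMUSG00000044948, chromosome 19, 47725296 to 47907726 in the deposited coordinates) encodes a part of the tether that links a double-headed inner arm to the doublet, and its loss is known to cause hydrocephalus in mice. It was at 9.09, 9.95, 9.95 and 8.69 CPM in Model and 13.1, 12.5, 13.98 and 15.5 in IsoL. The lowest IsoL library was above the highest Model library, and means were 9.42 ± 0.632 and 13.8 ± 1.34 (SD, n = 4). Cfap43 rose 1.46-fold (log2 0.55, SE 0.10, 95% interval 0.33 to 0.77, edgeR adjusted p = 0.0478). The call stood close to the threshold: of the 8 edgeR fits that each leave out 1 library, it passed only without Model 2 (adjusted p = 0.0283), and the other 7 gave adjusted p = 0.0690 to 0.182 with log2 differences of 0.48 to 0.60. With IsoL 3 and 4 alone against Model the difference was 0.65 (edgeR adjusted p = 0.0869). Cfap43 passed in DESeq2 (adjusted p = 0.00267), in limma voom (adjusted p = 0.0107) and in edgeR without the filter (adjusted p = 0.0363). It did not pass with the replicate block (edgeR adjusted p = 0.0828). The deposited span overlaps Gsto1 and Gsto2 on the opposite strand and Itprip on the same strand. Whether the libraries mark strand is not stated. All 5 tested genes of this group lay above Model, with a median of 0.23.

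The promoter of Cfap43 is printed because this is the member that passed, with the forkhead motif in capitals. It covers the 250 bases before the RefSeq start (GRCm38.p6, chr19:47837362-47837611, minus strand), and the motif begins 55 bases before that start. The deposited span of Cfap43 reaches 47907726, in coordinates whose build was not given. The counted gene may therefore begin upstream of the printed promoter. No X-box as written above lies in the searched window.
Cfap43 promoter: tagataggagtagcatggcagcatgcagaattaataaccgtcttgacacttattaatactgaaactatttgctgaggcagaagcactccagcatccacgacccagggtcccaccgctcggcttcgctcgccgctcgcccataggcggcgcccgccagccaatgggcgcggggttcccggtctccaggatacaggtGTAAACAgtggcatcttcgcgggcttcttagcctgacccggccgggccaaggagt

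Radial spokes, which carry signals from the central pair to the arms, had the lowest share above Model of the roles with at least 3 tested genes: 4 of 10, with a median log2 difference of -0.08. Rsph1, a spoke head gene, had the lowest difference of all members. It was at 8.25, 20.6, 23.7 and 16.8 CPM in Model and 10.4, 11.7, 10.8 and 10.5 in IsoL. Model 2 to 4 were above all IsoL libraries and Model 1 was below them all, so the groups overlapped and the spread lay within Model (17.3 ± 6.66 against 10.8 ± 0.576 CPM, SD, n = 4). Its log2 difference of -0.68 did not pass (edgeR adjusted p = 0.344). Without Model 1 it was -0.91 and passed (edgeR adjusted p = 0.0152). Rsph3a, a stalk gene, was at 9.93, 11.2, 8.70 and 9.24 CPM in Model and 6.88, 8.23, 7.34 and 8.02 in IsoL, with no overlap (log2 -0.36, SE 0.12, edgeR adjusted p = 0.223). Its near-identical copy Rsph3b had a log2 difference of -0.57 (edgeR adjusted p = 0.320), and reads may be split between the copies. Rsph4a, a spoke head gene typical of motile cilia, was at 8.70 to 13.4 CPM in Model and 9.58 to 16.2 in IsoL (log2 0.17, 95% interval -0.20 to 0.54). Rsph9, also of the head, was at 7.82 to 12.2 and 6.82 to 9.39 (log2 -0.09, 95% interval -0.43 to 0.24). The spread of the values within groups was large for members as a whole: the median coefficient of variation was 19.6% in Model and 13.1% in IsoL, against 9.15% and 6.81% for all tested genes.

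The nexin-dynein regulatory complex joins neighbouring doublets. Drc7 was at 4.34, 3.19, 3.83 and 2.92 CPM in Model and 8.47, 9.10, 5.25 and 3.39 in IsoL. Only IsoL 1 to 3 were above the Model range, and the log2 difference of 0.87 (SE 0.29, edgeR adjusted p = 0.243) was 0.26 with IsoL 3 and 4 alone. Drc1, needed to assemble the complex, was at 13.5 to 20.6 CPM in Model and 12.5 to 19.1 in IsoL (log2 -0.16), and Drc3 at 6.38 to 9.51 and 7.80 to 10.7 (log2 0.23).

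In the central apparatus, 6 of 8 tested genes lay above Model, with a median log2 difference of 0.11. Cfap65 (ENSMUSG00000047021, chromosome 1, 74941230 to 74974758 in the deposited coordinates), whose loss is known to impair sperm flagella, was at 8.81, 10.1, 13.2 and 8.69 CPM in Model and 13.3, 18.4, 19.4 and 16.4 in IsoL. Model 3 and IsoL 1 nearly touched, and the other libraries were well apart. Cfap65 had a larger difference than Cfap43, a log2 difference of 0.72 (SE 0.15, 95% interval 0.41 to 1.04), and did not pass (edgeR adjusted p = 0.0687). It passed in edgeR without Model 3 (adjusted p = 0.0259), in DESeq2 (adjusted p = 0.00184) and in limma voom (adjusted p = 0.0200). In DESeq2 2 members passed, where 2.14% of all genes did, and in limma voom 3, where 1.64% did. In edgeR 2 members passed at an adjusted p of 0.10, where 0.949% of all genes did, and 2 passed at 0.05 with no filter on low counts, where 0.401% did.

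Of 10 tested proteins of the doublet microtubules, 8 lay above Model and none passed, with a median log2 difference of 0.23. Cfap141 was at 4.20, 4.76, 5.22 and 5.23 CPM in Model and 5.83, 5.28, 6.20 and 5.64 in IsoL, without overlap, although IsoL 2 and Model 4 nearly touched (log2 0.24, edgeR adjusted p = 0.482). It shares 59.0% of its span with Gm53012 on the same strand. Cfap95 had 59 counts summed over Model and 57 over IsoL (log2 -0.33, 95% interval -1.15 to 0.49). Among the other Cfap genes, 6 of 10 lay above Model. Cfap157, of the sperm flagellum, was at 2.03, 1.31, 2.57 and 2.31 CPM in Model and 2.58, 2.78, 2.72 and 2.80 in IsoL, without overlap by a margin under the value of 1 count (log2 0.41, edgeR adjusted p = 0.465). Cfap58 had 28 and 64 such counts (log2 0.90, 95% interval -0.15 to 1.94). The abundant Cfap36, Cfap97 and Cfap418 had differences of 0.06, 0.03 and -0.10, each with an interval that includes 0. Restricted to the 40 members of at least 1 FPKM, the mean difference of the group score was 0.09, against 0.17 over all tested members.

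**Figure D3:**
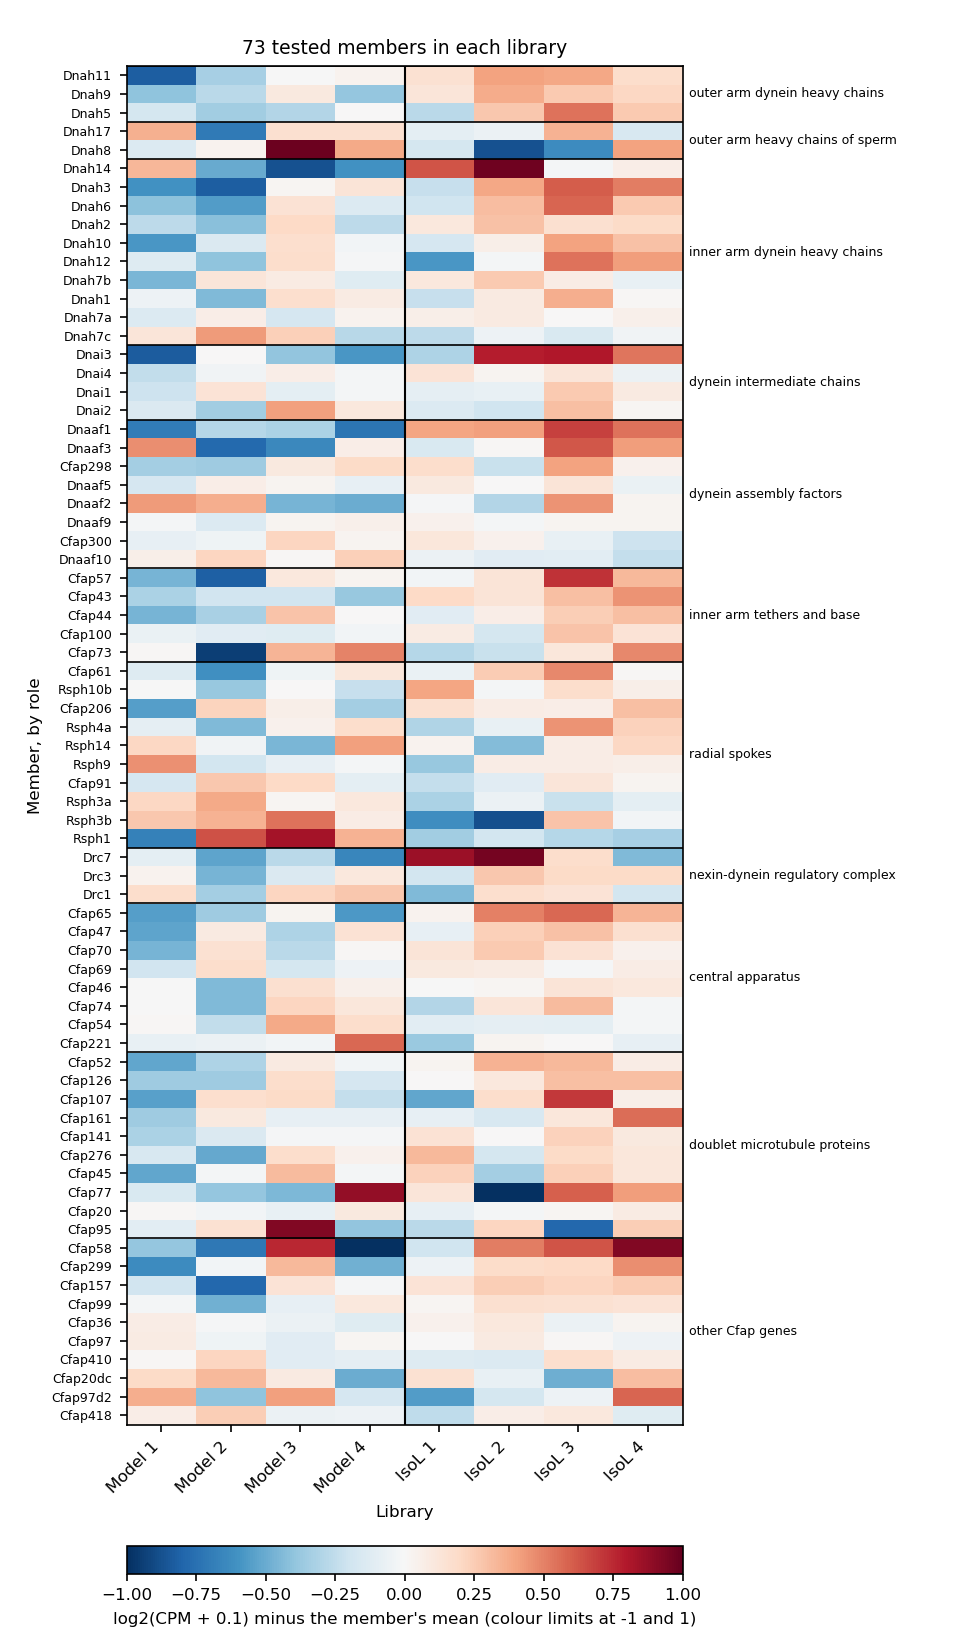
Each of the 73 tested members (vertical axis, by role) in each library (horizontal axis), as log2(CPM + 0.1) minus the mean of that member, with red above and blue below it and colours limited at -1 and 1. Model 1 and 2 are mostly blue and IsoL 3 mostly red. In these libraries Rsph3a runs the other way, as do Rsph1 except in Model 1 and Rsph3b except in IsoL 3.

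The difference was uneven over libraries. The score of the members, the mean over the 73 genes of log2 CPM centred on each gene, was -0.16, -0.18, 0.05 and -0.06 in Model 1 to 4 and -0.05, 0.06, 0.20 and 0.14 in IsoL 1 to 4. IsoL 1 lay within the Model range and Model 3 within the IsoL range. IsoL 3 was the highest library for 22 members (30.1%), where it was the highest for 8.92% of all tested genes. Model 2 was the lowest library for 22 members (30.1%) and for 22.6% of all tested genes, and Model 1 for 21 members (28.8%) and 13.6% of all tested genes. Outside the members, the genes whose log2 CPM followed this score most closely over the 8 libraries were Rhoh (Pearson r = 0.979), Spef2 (0.973), Ttc21a (0.973), Fancc (0.968) and Pcdhga12 (0.965). Rhoh had only 96 counts in all. Spef2 encodes a central apparatus protein. In all, 47 of 14463 other genes had an r of 0.9 or more. These points share the library depth and tissue of 8 samples, and the genes were picked for their likeness.

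Genes of the same structures that carry other symbols gave a like count. Among 48 tested axoneme genes outside the rule, 37 lay above Model with a median log2 difference of 0.14 and none passed. Their score overlapped between the groups, with IsoL 1 the lowest of the IsoL libraries. Of the machinery that builds all cilia, motile or not, 23 of 40 genes of intraflagellar transport and the BBSome lay above Model, with a median of 0.03, and none passed. Cytoplasmic dynein and dynactin, which serve transport in every cell, had 7 of 21 above Model and a median of -0.03. At an unadjusted p under 0.05 in edgeR, 5 of the 21 were lower and 0 higher. Their scores were 0.003 to 0.06 in Model and -0.06 to -0.001 in IsoL, without overlap. The 1 gene of that list that passed, the light chain gene Dynlt1b, fell (log2 -0.80, adjusted p = 0.0478 in edgeR), and it has near-identical copies. Over the 674 other tested genes with a cilium term, 54.5% lay above Model and the median was 0.01.

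Of 14 tested regulators that switch motile cilia on, 7 lay above Model and the median log2 difference was 0.05. None passed in edgeR, DESeq2 or limma voom, and 3 had an unadjusted p under 0.05 in edgeR, all higher in IsoL. Their score was -0.18, -0.04, 0.01 and -0.09 in Model 1 to 4 and 0.08, 0.08, 0.12 and 0.02 in IsoL 1 to 4. Every IsoL library thus lay above every Model library. Scores of cytoplasmic dynein and dynactin also did not overlap, with IsoL lower. Foxj1, the master regulator of motile ciliogenesis, was at 12.2, 16.02, 17.2 and 14.1 CPM in Model and 13.4, 13.5, 15.6 and 15.4 in IsoL. The groups overlapped fully (log2 -0.04, 95% interval -0.28 to 0.20, edgeR adjusted p = 0.916). Gmnc, which starts the multiciliated programme, was at 0.543 to 0.814 CPM in Model and at 2.33, 2.96, 1.39 and 0.825 in IsoL (log2 1.42, edgeR adjusted p = 0.142). Rfx3 was at 45.4 to 51.8 CPM in Model and 65.2, 68.8, 53.6 and 51.2 in IsoL (log2 0.27, edgeR adjusted p = 0.243). Both were highest in IsoL 1 and 2, as were Drc7 and Dnah14. Mcidas had 17 counts over the 8 libraries.

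The members were set beside markers of ependymal cells outside the rule. Part of that list, such as Hydin and Iqcg, is also among the axoneme genes above, and Foxj1 is among the regulators. The counts of these lists are therefore not independent. Of 20 such genes 19 were tested, 14 lay above Model, none passed, and their summed level was 100 to 122 CPM in Model and 100 to 138 in IsoL. Defining markers were present: per length, Foxj1 was at 5.60 FPKM, Tmem212 at 4.71 and Ccdc153 at 3.11, while Mia had 8 counts in all. Tmem212 had a log2 difference of -0.04 (95% interval -0.47 to 0.38) and Ccdc153 of 0.02 (95% interval -0.49 to 0.53). Nek5 was above Model in every IsoL library (log2 0.97, edgeR adjusted p = 0.148). The score of the list was -0.26 in IsoL 1, below every Model library, and 0.26 and 0.27 in IsoL 3 and 4, above them. In bulk tissue, a different number of ependymal cells and a different amount of RNA per cell cannot be told apart, and several abundant members, such as Dnaaf9 and Cfap36, are not limited to motile cilia.

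Markers of other tissue stood apart in some libraries. Choroid plexus epithelium, which also bears cilia, had 10 of 11 tested markers above Model, none past the threshold in edgeR and 5 in DESeq2. Its summed level was 384 to 429 CPM in Model and 1743, 1532, 526 and 457 in IsoL 1 to 4. Enpp2 made up most of this sum in Model, at 304 to 344 CPM, and was at 391 and 377 in IsoL 3 and 4. The score of the list was -1.14 to -0.54 in Model and 1.93, 1.78, 0.19 and -0.74 in IsoL 1 to 4. By score IsoL 4 thus lay within the Model range. Ttr, the transthyretin gene that marks this epithelium, was at 1.06 to 4.59 CPM in Model and at 609, 521, 44.8 and 0.458 in IsoL 1 to 4. None of the 14 markers was at 0 in all libraries. The libraries with most Ttr, IsoL 1 and 2, were those with most Drc7, Dnah14, Gmnc and Rfx3, and the part of this tissue in those differences was not tested. With IsoL 3 and 4 alone against Model, a comparison chosen after seeing the data, 59 of 73 tested members lay above Model, against 48.6% of all genes, and none passed in edgeR.

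Regional markers of the hypothalamus ran opposite to the members, with 14 of 15 below Model and a median log2 difference of -0.55. None passed in edgeR, 6 did in DESeq2 and 4 in limma voom. Their summed level was 196 to 222 CPM in Model and 119 to 174 in IsoL, and none was at 0 in all libraries. Markers of dorsal midbrain and thalamus had 11 of 14 above Model, with a median log2 difference of 0.77. Their scores were -0.74 to -0.14 in Model and 0.21 to 0.66 in IsoL, without overlap. Summed levels overlapped, at 1105 to 1169 CPM in Model and 1067 to 1258 in IsoL. These sums include abundant genes of little difference, such as Prkcd (log2 0.03) and Calb2 (log2 -0.09). In edgeR 3 of that list passed, all higher (Dmbx1, Tfap2d and Mab21l2), where 0.117% of all genes did. None of the 3 passed with the replicate block, each passed in 1 or 2 of the 8 fits that leave out a library, and DESeq2 called 7 of the list and limma voom 4. Cortical and hippocampal markers were high in IsoL 1 and 2 (scores of 0.93 and 0.78) and not in IsoL 3 and 4 (-0.38 and -0.41). Tanycytes, the other cells that line the third ventricle, had 7 of 10 tested markers above Model (median log2 difference 0.19). Their summed levels were 113 to 156 CPM in Model and 135 to 150 in IsoL. Astrocyte markers had 8 of 10 above Model (median 0.06), oligodendrocyte markers 9 of 10 (0.13) and microglial markers 10 of 10 (0.17). Neuronal markers had 4 of 10 (-0.02) and endothelial markers 2 of 10 (-0.03). The medians of tanycyte and microglial markers were near the 0.17 of the members. Oligodendrocyte scores were -0.14 to -0.005 in Model and 0.001 to 0.12 in IsoL, without overlap. None of the markers of these cells passed in edgeR, while DESeq2 called 1 astrocyte and 2 neuronal markers and limma voom 2 neuronal markers. The part of the dissected region in the difference of the members was not tested.

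**Figure D4:**
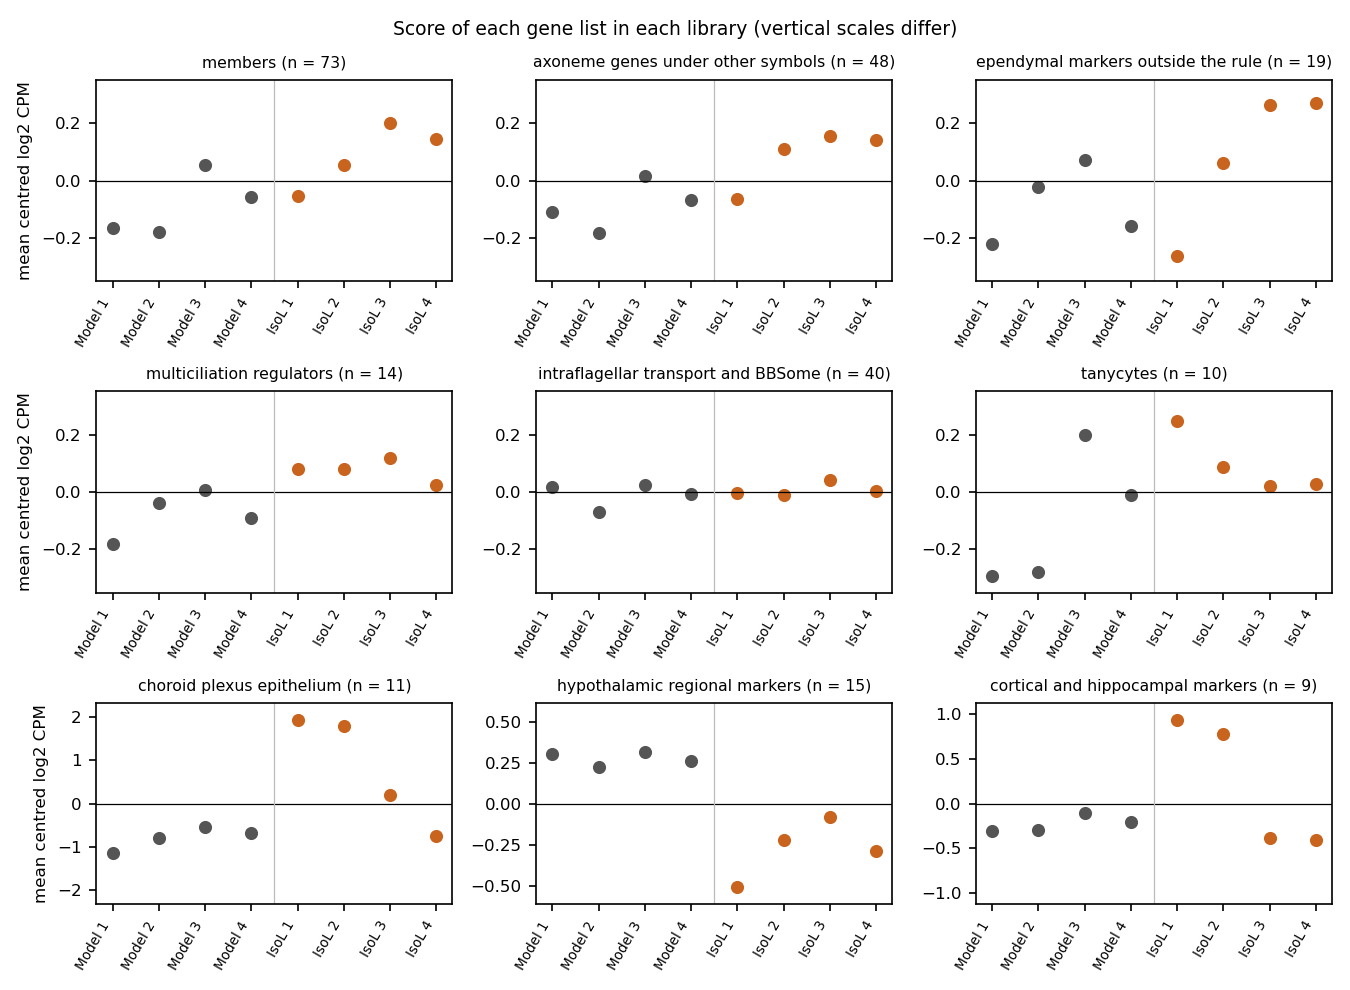
Score of 9 gene lists in each library (vertical axis, mean log2 CPM centred on each gene; horizontal axis, library; n is the number of tested genes; vertical scales differ). The members and the other axoneme genes are highest in IsoL 3, and among the IsoL libraries they are lowest in IsoL 1. The choroid plexus markers are highest in IsoL 1 and 2, and the hypothalamic markers are lower in every IsoL library than in every Model library.

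Many members are long, and length moved with the group difference over all genes. Among other tested genes, 64.3% of those of at least 10 kb lay above Model (median log2 difference 0.03) and 39.5% of those under 2 kb (median -0.05). Of the members, 14 of 18 with at least 10 kb lay above Model (median 0.26; most of the 18 are dynein heavy chains), and 7 of 11 under 2 kb (median 0.20). In the class of 2 to 5 kb these were 21 of 33 members and 45.1% of other genes, and in that of 5 to 10 kb 10 of 11 members and 54.1% of other genes. In each class the median of the members was above that of the other genes, and the part of length in the difference was not tested.

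**Figure D5:**
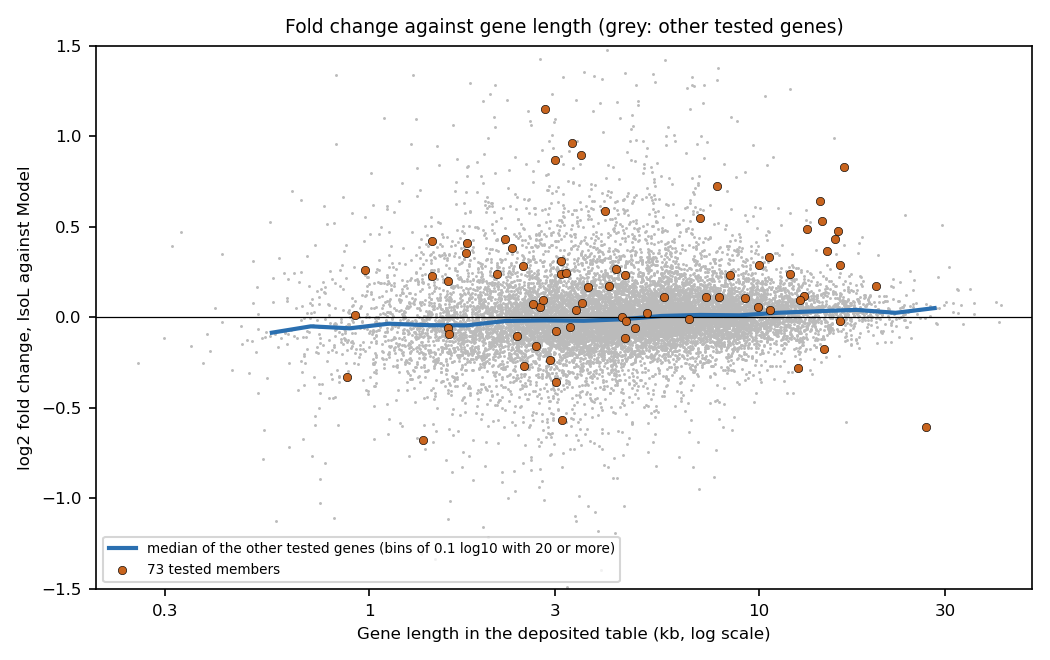
Log2 fold change, IsoL against Model (vertical axis), by gene length in the deposited table (horizontal axis, kb, log scale) for the 73 tested members (large points) and 14426 other tested genes (grey), with 37 others outside the axes. The line is the running median of the other genes, which goes from below 0 in short genes to slightly above it in long ones, and most members of 10 kb and more lie above the line.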

How the data were processed

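Polyadenylated RNA was sequenced in 8 libraries, 4 per group, without strand marking stated. The submitters' processing notes name fastp 0.22.0, HISAT2 2.1.0 and HTSeq 0.9.1. Read counts and FPKM values for each gene and library were deposited in 1 table, per the file headers. The deposited FPKM followed from counts, gene length and library totals. The genome build was not given in the sources used here. Among 21851 identifiers shared with GENCODE M21, 517 have the GRCm38 start.

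Counts were filtered with filterByExpr (14536 genes kept), scaled with TMM and compared, IsoL against Model, by edgeR's quasi-likelihood F-test in its robust form (edgeR 4.0.16 under R 4.3.3) with Benjamini-Hochberg adjustment over all tested genes at 0.05. The score uses log2 CPM with a prior count of 2. Alternatives were DESeq2 1.42.0, limma 3.58.1 (voom with quality weights), other size factors, no filter, a replicate block, each library left out, an adjusted p of 0.10, near-identical copies left out, a prior count of 0.5 and a minimum of 1 FPKM. IsoL 3 and 4 alone, and the alternatives for counts above Model and without overlap, were added after seeing the data. Figures used matplotlib 3.10.9.

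The members and lists were chosen with earlier results of these data known. Named were members that passed, those without overlap between groups, per symbol family the 3 highest in FPKM and 2 with the smallest p, the 5 highest and 5 lowest log2 differences, and up to 3 genes per list. Dnah5, Gmnc, Rfx3, Mcidas, Mia, Tmem212, Ccdc153, the untested members and those with an X-box were named after their values were seen, as was the grouping by role.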

Additional observations from a re-analysis of the deposited data

Results flagged for a closer look

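Rsph9, a radial spoke head gene, had 1 library far from the others in IsoL: IsoL 1 was at 6.82 CPM while IsoL 2 to 4 lay between 9.26 and 9.39, so that the gap took 0.949 of the range of the group. Of 96 groups of 4 libraries examined for such a gap this was the 1 found, and chance gives about 1 in 20 groups. The Model libraries of Rsph9 ranged from 7.82 to 12.2 CPM.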

How the results depend on the processing

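The 1 member that passed became 2 without the filter, 2 in DESeq2, 3 in limma voom, 2 at an adjusted p of 0.10, 0 with IsoL 3 and 4 alone and 0 to 1 with each library left out. Which member it was changed: Cfap65 with the replicate block or without Model 3, Rsph1 without Model 1. Over all genes the 40 became 74 without the filter, 17 with the replicate block, 311 in DESeq2, 238 in limma voom, 138 at 0.10 and 6 to 146 with 1 library omitted, at most without Model 2. The 7 members without overlap above Model became 22 with IsoL 3 and 4 alone and 7 to 15 with 1 library omitted, at most without IsoL 1. Fewer libraries overlap less often in any gene: over all tested genes the share was 4.05% with 8 libraries, 10.1% with IsoL 3 and 4 alone and 5.59 to 6.55% with 1 library omitted. The number of members above Model was 49 to 58 with a library left out, and the median log2 difference 0.09 to 0.22. With the replicate block the median was 0.16, 1 member passed and Cfap43 did not (edgeR adjusted p = 0.0828). Deviations of same-numbered libraries from their group means correlated at 0.02 to 0.07, and those of differently numbered libraries at -0.14 to 0.14. With so few libraries these values cannot exclude a weak pairing. No direction reversed among the counts, medians and scores, and 28 of 32 named members kept their sign in all alternatives run; Cfap95, Cfap97, Dnai2 and Rsph9 did not. Members with few counts, such as Dnaaf1 and Cfap58, are limited by depth.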
